A study of Mus musculus with 24 samples.

Results

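Liver macrophages of splenectomized mice were compared between 7 days after a 70% liver resection (LR+SE 7 days, 3 arrays) and splenectomy with the liver left whole (SE, 3 arrays). Every transcript cluster of the array was kept, 22206 of 22206, and the 6 arrays were chosen by their titles out of 24 in the series. All mice were C57BL/6 males per the study's methods, and every mouse of both groups had lost its spleen. In LR+SE 7 days the spleen was removed 7 days before the resection and the cells were taken 7 days after it, 14 days after splenectomy. In SE the spleen was removed 7 days before sampling and the liver was not operated on, so resection, liver surgery and the longer time without a spleen cannot be told apart. Other groups of the series are also used below. LR+SE 24 h and LR+SE 3 days had the same surgery and were sampled earlier. LR 24 h and LR 7 days had the 70% resection with the spleen kept. Intact mice kept both organs whole, and the methods describe such controls as sham-operated. F4/80+ cells were isolated with collagenase, a density gradient and anti-F4/80 magnetic beads, and per the methods each preparation pooled cells of several mice. The animals described there were too few for 3 such separate pools in SE and also in the LR+SE groups, so how animals were divided among the preparations of either group is not known, and the p-values measure only the spread between preparations, which may be technical. A cluster's value is its log2 signal, on a scale that ran between 1.92 and 19.93, and a difference is always LR+SE 7 days minus SE on that scale.

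Kupffer cells are the resident macrophages of the liver sinusoids. They clear particles and old red cells from portal blood, and after resection they release cytokines and growth factors that help start hepatocyte division, while blood monocytes enter the remnant and can turn into macrophages. Macrophages also switch on immediate early, NF-kB and heat shock genes within minutes of stress. The comparison asks how macrophages of the regrown liver differ from those of an unresected liver when no spleen can supply cells.

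The label of the cells held on the 6 arrays. The macrophage receptor gene Adgre1, which encodes F4/80, read 16.36, 15.76 and 16.78 in LR+SE 7 days, against 15.66, 16.10 and 14.99 in SE. Clec4f, a lectin of Kupffer cells, read 18.35, 19.18 and 18.43 in LR+SE 7 days, against 18.66, 19.20 and 19.16 in SE. The background level, the 0.95 quantile of the means of 1091 odorant receptor clusters, was 3.70, and Cd3e of T cells (3.78 in LR+SE 7 days and 3.70 in SE), Cd79a of B cells (3.38 in LR+SE 7 days and 3.16 in SE) and Krt19 of bile ducts (2.91 in LR+SE 7 days and 2.90 in SE), chosen after their values were seen, lay near or below it. Above it lay 5 of 18 T and NK cell genes, 8 of 14 B and plasma cell genes and 4 of 9 bile duct genes, with 0 called in each list. The plasma cell gene Jchain averaged 8.78 in LR+SE 7 days and 6.24 in SE. Albumin (Alb) averaged 18.96 in LR+SE 7 days and 16.10 in SE, and the endothelial lectin gene Clec4g 16.60 in LR+SE 7 days and 14.01 in SE, all far above background.

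An array measure moved with the groups. The exon over intron area, the area under a curve that separates exon control probes and intron control probes and so tells how well spliced RNA stands out, was 0.801, 0.824 and 0.830 on the LR+SE 7 days arrays, against 0.762, 0.788 and 0.759 on the SE arrays, so the groups did not overlap. The share of clusters above background was 58.5%, 55.9% and 56% in LR+SE 7 days and 59%, 57.8% and 58.1% in SE. Pearson correlations over all clusters were 0.980 to 0.986 among LR+SE 7 days arrays, 0.974 to 0.983 among SE arrays and 0.959 to 0.979 between the groups. Y-linked clusters averaged 8.32 to 8.78 in LR+SE 7 days and 7.95 to 8.32 in SE, while the 3 intact arrays, replicate 1 of LR+SE 3 days and replicate 2 of LR 7 days lay between 2.60 and 3.08, below background, against the stated sex.

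In limma, fitted over all 24 arrays, 337 of the 22206 clusters passed an adjusted p of 0.05 (1.52%), 171 higher (0.77%) and 166 lower (0.748%) in LR+SE 7 days. Differences of 1 log2 unit or more were seen in 163 of the higher and 156 of the lower calls, and 300 carried exactly 1 gene symbol. The arrays of the groups did not overlap in 335 of the calls, and in 4061 of all clusters (18.3%). The median difference over all clusters was 0. The split of calls moved with the setting. It was 146 higher and 252 lower after quantile normalization, 189 and 121 with the 6 arrays alone, 288 and 197 among clusters above background, and 302 and 186 with array weights. A total of 56 calls held whichever of the 6 arrays was left out. The count was 87 without replicate 3 of LR+SE 7 days, 178 without its replicate 2, 105 without replicate 3 of SE and 119 without its replicate 1. With the exon over intron area of each array as a covariate, a fit added after the values had been seen, 24 clusters passed, 4 higher and 20 lower. Of the 337 calls 19 held in that fit, 18 of them lower, and 336 kept their direction, while the median standard error over all clusters was 0.41 with the covariate and 0.29 without it.

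**Figure D1:**
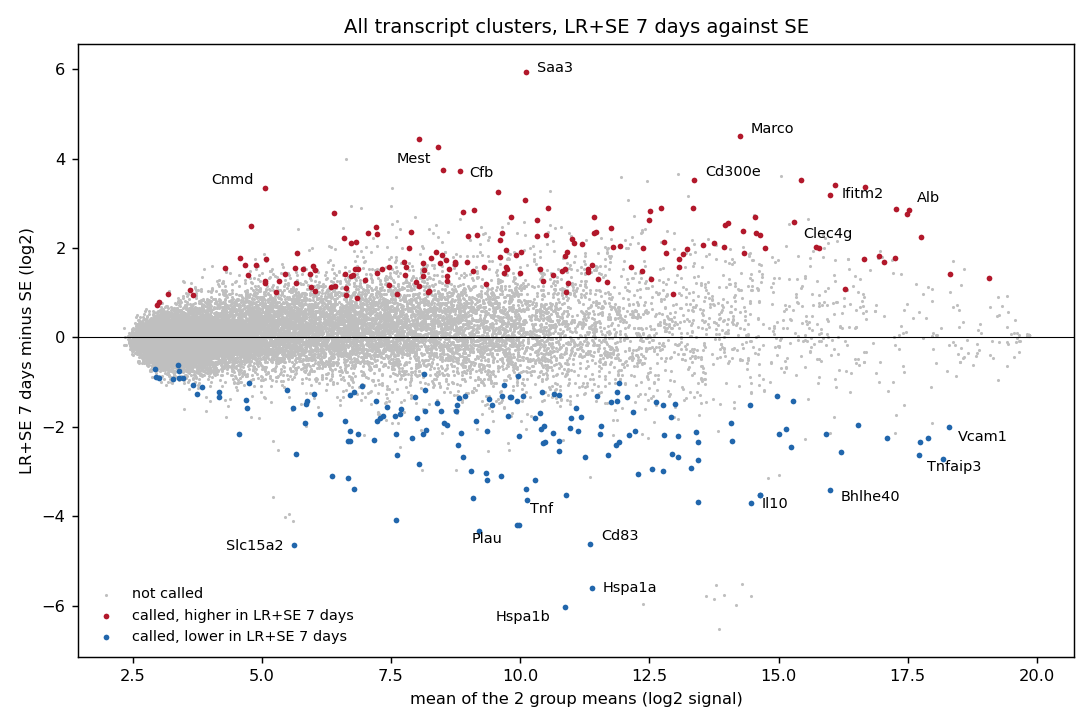
The difference LR+SE 7 days minus SE (log2, vertical) against the mean of the 2 group means (log2 signal, horizontal) for 22206 clusters, with the 171 higher calls in red and the 166 lower calls in blue. Hspa1b and Hspa1a lie lowest among the calls at -6.02 and -5.61, Saa3 lies highest at 5.94, and the grey points below -5 are 4 major urinary protein clusters and 5 clusters without a symbol, none of them called.

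The 2 deepest falls among the calls were heat shock genes, Hspa1b and Hspa1a. Their products are chaperones that refold damaged proteins, and heat shock factors bound at GAA and TTC repeats start their transcription. Of 17 measured heat shock and chaperone genes 4 were lower (23.5%, against 0.748% of all clusters) and none higher, with a list median of -0.68. The gene lists here and below were chosen with earlier results of these data known, so their shares are no test. Hspa1b and Hspa1a encode the inducible HSP70 chaperone and are near-identical copies, so the probes of each may read the other. The promoters of these 2 genes and of Hsph1 are shown because the 3 genes fell together. They are RefSeq sequences of GRCm38.p6 that begin 250 bases before the annotated start and end 50 bases after it, with each match to GAANNTTC, a pair of the repeats facing each other, in capitals. Hspa1a lies at chr17:34972107-34972406, Hspa1b at chr17:34959189-34959488 and Hsph1 at chr5:149636287-149636586, all on the minus strand.
Hspa1a: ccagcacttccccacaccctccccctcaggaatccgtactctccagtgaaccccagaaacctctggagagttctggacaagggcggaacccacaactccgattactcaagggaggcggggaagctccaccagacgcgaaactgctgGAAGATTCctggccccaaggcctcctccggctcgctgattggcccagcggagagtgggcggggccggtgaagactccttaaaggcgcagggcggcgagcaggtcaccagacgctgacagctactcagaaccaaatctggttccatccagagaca
Hspa1b: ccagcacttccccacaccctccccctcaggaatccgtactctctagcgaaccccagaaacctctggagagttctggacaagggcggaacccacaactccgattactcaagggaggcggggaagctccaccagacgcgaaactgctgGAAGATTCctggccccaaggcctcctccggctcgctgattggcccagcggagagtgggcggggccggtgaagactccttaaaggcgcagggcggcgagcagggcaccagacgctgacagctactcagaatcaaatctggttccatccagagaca
Hsph1: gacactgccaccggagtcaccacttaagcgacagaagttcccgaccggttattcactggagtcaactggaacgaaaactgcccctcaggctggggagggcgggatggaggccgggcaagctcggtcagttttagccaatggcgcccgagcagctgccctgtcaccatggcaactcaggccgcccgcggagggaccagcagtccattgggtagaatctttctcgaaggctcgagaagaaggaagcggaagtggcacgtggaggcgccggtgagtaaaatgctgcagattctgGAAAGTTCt
The Hspa1a and Hspa1b windows differ at 4 of 300 positions, and the match starts 104 bases before the annotated start in both. In Hsph1 it starts 41 bases after the annotated start. Bag3 held a match too, so 4 of the 4 called genes did. On either strand GAANNTTC occurred in 2149 of 27025 RefSeq promoters of that length (7.95%), and a match is a description of the letters, not of binding. The genes searched were the called members of the heat shock list, and 2 of them are near-identical copies, so these shares are no test of them.

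Hspa1b read 7.68, 8.95 and 6.93 in LR+SE 7 days, against 15.72, 12.21 and 13.67 in SE, and Hspa1a read 8.15, 9.51 and 8.08 in LR+SE 7 days, against 16.10, 12.49 and 13.97 in SE. All 3 LR+SE 7 days arrays lay below all 3 SE arrays for each gene, while the SE arrays themselves spread widely. The differences were -6.02 ± 0.72 for Hspa1b (SE of the fit, limma adjusted p = 0.000218) and -5.61 ± 0.65 for Hspa1a (adjusted p = 0.000213), and both held without any single array and with the exon over intron covariate (-6.56 ± 1.07 and -5.98 ± 0.98). Hsph1, an HSP110 partner of HSP70, read 6.90, 7.06 and 7.16 in LR+SE 7 days, against 12.15, 8.90 and 13.07 in SE (-4.33 ± 1.01, adjusted p = 0.0321). Bag3, which links HSP70 to selective autophagy, read 5.53, 5.55 and 5.59 in LR+SE 7 days, against 8.88, 6.07 and 8.67 in SE (-2.32 ± 0.50, adjusted p = 0.0218). Replicate 2 of SE was the lowest SE array for all 4 genes. The Hsph1 and Bag3 calls held only without that array, with highest adjusted p of 0.16 and 0.128 among the other single-array exclusions. The sequestosome gene Sqstm1, an autophagy receptor, read 12.29, 12.59 and 11.93 in LR+SE 7 days, against 14.73, 14.40 and 14.68 in SE (-2.34 ± 0.30, adjusted p = 0.000355), and its call held without any single array. Sqstm1 did not pass with the covariate (-1.73 ± 0.41, adjusted p = 0.151).

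Of 13 costimulation and activation genes Cd83 and Cd80 were lower (15.4%, against 0.748% of all clusters). Cd83, a surface marker of activated antigen-presenting cells, read 8.47, 10.58 and 8.07 in LR+SE 7 days, against 14.85, 13.31 and 12.82 in SE (-4.62 ± 0.60, adjusted p = 0.000413). A further cluster named Cd83 differed by -4.20 ± 0.58 (adjusted p = 8e-04). No LR+SE 7 days array reached the lowest SE array on either cluster. The costimulatory ligand Cd80 read 10.83, 11.38 and 10.89 in LR+SE 7 days, against 12.82, 12.26 and 12.38 in SE (-1.45 ± 0.30, adjusted p = 0.019). Its groups did not overlap, but its call ended without replicate 1 or 3 of either group (highest adjusted p 0.0978). All 13 genes of the list had a negative difference, with a median of -0.86.

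Among cytokines Il10 and Tnf were lower, 2 of 19 (10.5%, against 0.748% of all clusters), and none was higher. Il10, the anti-inflammatory cytokine, read 12.79, 12.65 and 12.41 in LR+SE 7 days, against 16.37, 16.28 and 16.29 in SE (-3.70 ± 0.58, adjusted p = 0.00215). The 3 arrays of each group lay close together, with SDs of 0.19 in LR+SE 7 days and 0.05 in SE. Tnf, the inflammatory cytokine, read 8.98, 9.26 and 9.15 in LR+SE 7 days, against 13.60, 11.92 and 12.48 in SE (-3.53 ± 0.73, adjusted p = 0.0164), and this call ended without replicate 3 of LR+SE 7 days or replicate 1 or 3 of SE (highest adjusted p 0.0921). Il6, the cytokine that drives hepatocyte acute phase genes, read 8.64, 8.76 and 8.35 in LR+SE 7 days and 10.62, 11.15 and 11.08 in SE, without overlap, but did not pass (-2.36 ± 0.98, adjusted p = 0.262). Il1b differed by -0.92 ± 0.58 (adjusted p = 0.517). With the exon over intron covariate Il10 passed (-4.94 ± 0.80, adjusted p = 0.0135) and Tnf did not (-2.59 ± 1.06, adjusted p = 0.514). Of 24 chemokines 2 were lower and Cxcl12 was higher (12.5% called, against 1.52% of all clusters). Cxcl12 differed by 1.11 ± 0.27 (adjusted p = 0.0378), but passed in none of the 6 single-array exclusions (highest adjusted p 0.121). With the covariate it did not pass either (1.45 ± 0.39, adjusted p = 0.245). Cxcl2, a neutrophil attractant, read 17.65, 16.79 and 16.01 in LR+SE 7 days, against 19.74, 19.22 and 19.65 in SE (-2.72 ± 0.41, adjusted p = 0.0017), close to the top of the scale in SE. The Cxcl2 call held without any single array but not with the covariate (-2.2 ± 0.60, adjusted p = 0.25). Ccl5, a T cell and monocyte attractant, read 5.51, 5.18 and 4.62 in LR+SE 7 days, against 8.85, 7.24 and 8.68 in SE (-3.15 ± 0.67, adjusted p = 0.0207), with its call lost without replicate 2 or 3 of LR+SE 7 days or replicate 1 or 3 of SE (highest adjusted p 0.111) and its difference -1.84 ± 0.94 with the covariate (adjusted p = 0.64).

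NF-kB is held in the cytoplasm by inhibitors, and it switches on genes of those same inhibitors once active. Of 14 NF-kB subunits and inhibitors 6 were lower (42.9%, against 0.748% of all clusters) and none higher, with a median of -0.60. The promoters of 2 of the inhibitors and of Cxcl2 are shown because these genes fell together, with matches to GGGNNNTTCC or its reverse complement, a form of the kB site, in capitals. Nfkbia lies at chr12:55492598-55492897 (minus strand), Tnfaip3 at chr10:19015361-19015660 (minus strand) and Cxcl2 at chr5:90903649-90903948 (plus strand).
Nfkbia: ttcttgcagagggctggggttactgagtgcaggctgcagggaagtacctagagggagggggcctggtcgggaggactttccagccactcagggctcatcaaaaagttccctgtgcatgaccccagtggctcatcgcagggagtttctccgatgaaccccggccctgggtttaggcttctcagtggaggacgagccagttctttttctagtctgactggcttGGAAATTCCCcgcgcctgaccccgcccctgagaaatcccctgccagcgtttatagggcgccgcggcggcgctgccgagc
Tnfaip3: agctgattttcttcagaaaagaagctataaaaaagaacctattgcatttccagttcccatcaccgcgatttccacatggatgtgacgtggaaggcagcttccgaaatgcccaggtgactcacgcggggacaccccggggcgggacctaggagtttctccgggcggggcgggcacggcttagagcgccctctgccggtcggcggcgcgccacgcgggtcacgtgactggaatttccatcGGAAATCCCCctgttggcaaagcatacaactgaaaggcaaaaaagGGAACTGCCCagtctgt
Cxcl2: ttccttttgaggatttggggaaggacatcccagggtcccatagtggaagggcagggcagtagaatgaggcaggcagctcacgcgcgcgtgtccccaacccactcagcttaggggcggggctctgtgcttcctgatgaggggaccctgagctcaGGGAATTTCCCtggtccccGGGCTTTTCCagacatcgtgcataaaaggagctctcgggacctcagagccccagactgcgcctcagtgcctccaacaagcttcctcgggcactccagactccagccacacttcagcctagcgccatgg
The letters matched once in the Nfkbia window, at 2 places in Tnfaip3 and at 3 overlapping or neighbouring places in Cxcl2. Of 11 genes searched, chosen after their values were seen, 7 had a promoter in the table, and Tnfaip3, Rel, Nfkbia, Nfkbie and Cxcl2 held a match, while Nfkbid and Tnf did not. On either strand GGGNNNTTCC occurred in 1493 of 27025 promoters (5.52%). The genes searched were called members of the NF-kB list and other falls, so these shares are no test of them. A match is a description of the letters, not of binding.

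Nfkbia, which encodes the inhibitor IkBa, read 17.06, 17.10 and 16.15 in LR+SE 7 days, against 19.32, 18.95 and 18.78 in SE (-2.25 ± 0.44, adjusted p = 0.0133). Tnfaip3, the deubiquitinase A20 that ends NF-kB signalling, read 16.77, 16.34 and 16.11 in LR+SE 7 days, against 19.35, 18.97 and 18.80 in SE (-2.63 ± 0.51, adjusted p = 0.0113). Neither gene's groups overlapped, both were near the top of the scale in SE, and both calls ended without replicate 3 of LR+SE 7 days or replicate 1 of SE (highest adjusted p 0.0975 for Nfkbia and 0.069 for Tnfaip3). Rel, the c-Rel subunit, read 13.23, 12.82 and 12.76 in LR+SE 7 days, against 15.75, 14.65 and 15.36 in SE (-2.31 ± 0.26, adjusted p = 0.000213), and held without any single array and with the covariate (-2.02 ± 0.39). Nfkbid, a nuclear inhibitor, differed by -2.13 ± 0.39 (adjusted p = 0.00827, lost without replicate 3 of SE at 0.0556). The list's count was 2 without replicate 3 of LR+SE 7 days or without replicate 1 of SE, and 1 with the exon over intron covariate, where the median was -1.17.

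Immediate early and KLF transcription factor genes rise within minutes of a stimulus. Of 26 members 8 were lower (30.8%, against 0.748% of all clusters) and none higher, with a median of -1.58 and 24 negative differences. Klf2, a regulator of quiescence, read 10.35, 11.08 and 9.72 in LR+SE 7 days, against 13.80, 12.99 and 12.28 in SE (-2.64 ± 0.48, adjusted p = 0.00801). Klf6 read 16.31, 16.52 and 15.07 in LR+SE 7 days, against 18.48, 18.19 and 18.02 in SE (-2.26 ± 0.37, adjusted p = 0.00312), and Fosb, an AP-1 subunit, read 16.68, 17.42 and 15.63 in LR+SE 7 days, against 19.17, 18.62 and 18.95 in SE (-2.34 ± 0.52, adjusted p = 0.0249). In all 3 genes replicate 3 of LR+SE 7 days was the lowest array. Klf6 kept its call without any single array, while Klf2 lost it without replicate 3 of LR+SE 7 days or replicate 1 of SE (highest adjusted p 0.0663) and Fosb without those arrays or replicate 3 of SE (highest 0.158). Nr4a1, a nuclear receptor induced by activation, differed by -2.20 ± 0.48 (adjusted p = 0.0221, called in 2 of 6 single-array exclusions, highest 0.131) and Klf4 by -1.69 ± 0.34 (adjusted p = 0.0138, called in 3 of 6, highest 0.0999). The founding immediate early genes did not pass: Fos read 18.08, 18.82 and 17.85 in LR+SE 7 days and 18.84, 18.78 and 18.75 in SE, and Jun differed by -2.14 ± 0.58 (adjusted p = 0.0632). The letters of the cyclic AMP response element, TGACGTCA, were found in 0 of the 8 called members' promoters and in 507 of 27025 promoters (1.88%). The count of lower members was 2 without replicate 3 of LR+SE 7 days or replicate 1 of SE, and 4 without replicate 3 of SE. It was 0 with the exon over intron covariate, where the median was -0.92 and the difference of Fosb -1.0 ± 0.67. The part of RNA quality in these falls was not tested further.

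**Figure D2:**
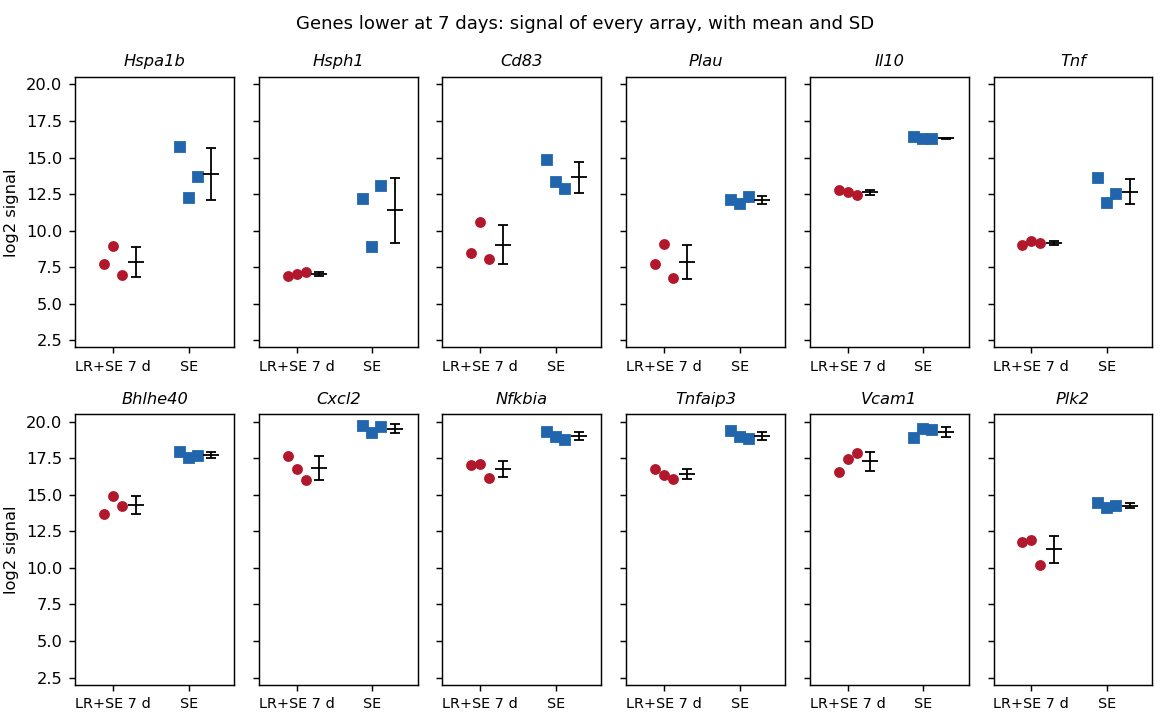
Log2 signal of every array for 12 called genes that were lower, LR+SE 7 days (red circles, left) and SE (blue squares, right), with the mean and SD of 3 arrays beside the points. The groups do not overlap in any of the 12 panels, which holds for 335 of the 337 calls and for 18.3% of all clusters. Replicate 2 of SE lies nearest to the LR+SE 7 days arrays for Hspa1b and Hsph1.

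Plau, urokinase, which activates plasmin and with it hepatocyte growth factor, read 7.73, 9.11 and 6.78 in LR+SE 7 days, against 12.12, 11.81 and 12.31 in SE (-4.20 ± 0.49, adjusted p = 0.000213). Hbegf, a ligand of the epidermal growth factor receptor, read 9.35, 10.54 and 9.85 in LR+SE 7 days, against 12.23, 12.79 and 12.73 in SE (-2.67 ± 0.45, adjusted p = 0.00504). Both calls held without any single array and with the covariate (-3.84 ± 0.74 and -3.81 ± 0.60), and the groups did not overlap. Mmp19, a matrix protease, read 8.24, 8.46 and 8.28 in LR+SE 7 days, against 11.63, 12.28 and 11.96 in SE (-3.63 ± 0.87, adjusted p = 0.0384), but passed in none of the 6 single-array exclusions (highest adjusted p 0.138). The growth factor gene Pdgfb differed by -1.58 ± 0.36 (adjusted p = 0.029, lost without replicate 1 or 3 of LR+SE 7 days or replicate 1 of SE at up to 0.155). Hgf, hepatocyte growth factor itself, read 9.20, 9.72 and 8.66 in LR+SE 7 days and 8.63, 9.06 and 9.16 in SE, overlapping groups (0.24 ± 0.45, adjusted p = 0.865). Of 20 regenerative growth factors 2 were lower (10%) and none higher. Vcam1, an adhesion molecule that Kupffer cells carry, read 16.59, 17.46 and 17.83 in LR+SE 7 days, against 18.92, 19.51 and 19.44 in SE (-2.0 ± 0.39, adjusted p = 0.0117), held with the covariate (-3.06 ± 0.49) and was lost without replicate 3 of SE (0.0556). Cxcr4, the receptor of Cxcl12, read 7.03, 7.03 and 4.83 in LR+SE 7 days, against 9.75, 8.66 and 8.41 in SE (-2.64 ± 0.55, adjusted p = 0.0192), and was lost without replicate 3 of LR+SE 7 days or replicate 1 of SE (highest 0.122).

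Further falls came from single genes. Slc15a2, an oligopeptide transporter, read 2.94, 4.0 and 2.99 in LR+SE 7 days, around background, against 7.06, 8.25 and 8.53 in SE (-4.64 ± 0.53, adjusted p = 0.000213). Bhlhe40, a transcriptional repressor of the clock and of Il10, read 13.69, 14.90 and 14.26 in LR+SE 7 days, against 17.92, 17.51 and 17.68 in SE (-3.42 ± 0.48, adjusted p = 8e-04). Both held without any single array and with the covariate (-5.49 ± 0.76 and -4.55 ± 0.64). Csrnp1, an AXUD1 nuclear protein, differed by -3.59 ± 0.48 (adjusted p = 0.000536), Chka, choline kinase, by -3.40 ± 0.59 (0.00558) and Eid3 by -3.03 ± 0.38 (0.000355), all in every single-array exclusion. With the covariate Csrnp1 (-2.53 ± 0.65), Chka (-2.91 ± 0.88) and Eid3 (-2.33 ± 0.54) did not pass (adjusted p = 0.211, 0.297 and 0.14). Ifrd1 differed by -3.68 ± 0.68 (adjusted p = 0.00828), but was lost without replicate 3 of either group (highest 0.0664).

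Of 23 p53 target genes 4 were lower (17.4%, against 0.748% of all clusters) and none higher. Their median of -0.02 lay at that of all clusters. Plk2, a stress-induced kinase, read 11.74, 11.88 and 10.19 in LR+SE 7 days, against 14.45, 14.08 and 14.26 in SE (-2.99 ± 0.47, adjusted p = 0.00215). Plk3 read 5.88, 7.38 and 6.60 in LR+SE 7 days, against 9.14, 9.03 and 10.19 in SE (-2.83 ± 0.44, adjusted p = 0.00215), and Mdm2, the ligase that degrades p53, read 11.57, 11.69 and 11.66 in LR+SE 7 days, against 14.27, 13.68 and 14.79 in SE (-2.61 ± 0.47, adjusted p = 0.00785). None of these 3 overlapped, and Mdm2 alone among them was lost in an exclusion, that of replicate 3 of SE (0.0524). Cdkn1a, the cell cycle inhibitor p21, read 8.64, 9.65 and 7.78 in LR+SE 7 days, against 14.22, 10.37 and 11.10 in SE (-3.20 ± 0.78, adjusted p = 0.0419). Replicate 1 of SE stood far above the other SE arrays, and the Cdkn1a difference was -2.04 without it, with the call lost in 5 of 6 exclusions (highest adjusted p 0.201). The list's count was 2 without replicate 3 of SE, and 0 with the covariate.

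Interferon response genes had 2 of 21 members lower (9.52%, against 0.748% of all clusters) and a median of -0.45. Rsad2, the antiviral enzyme viperin, read 9.08, 9.01 and 7.15 in LR+SE 7 days, against 12.61, 9.94 and 12.85 in SE (-3.39 ± 0.72, adjusted p = 0.0199). Oasl1 read 7.65, 7.83 and 7.17 in LR+SE 7 days, against 11.35, 8.87 and 11.39 in SE (-2.99 ± 0.66, adjusted p = 0.025). Replicate 2 of SE was well below the other SE arrays for both, and the Oasl1 call held only without it (highest adjusted p 0.127 otherwise), while Rsad2 was lost without replicate 3 of LR+SE 7 days or replicate 1 or 3 of SE (highest 0.129). With the covariate the list median was 0.39 and the difference of Rsad2 -1.23 ± 0.86.

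Among the called genes that were higher, Saa3 and Marco had the largest differences. Of 18 scavenger and clearance receptor genes Marco was the sole call (5.56%), and the median of that list was 0.09. Saa3, the serum amyloid A made by macrophages and stroma, read 12.96, 11.12 and 15.16 in LR+SE 7 days, against 6.41, 7.62 and 7.41 in SE (5.94 ± 1.26, adjusted p = 0.02). Marco, a scavenger receptor for bacteria and particles, read 15.60, 15.71 and 18.18 in LR+SE 7 days, against 10.67, 13.18 and 12.15 in SE (4.50 ± 0.82, adjusted p = 0.00809). Cd300e, an activating myeloid receptor, read 14.52, 14.28 and 16.62 in LR+SE 7 days, against 11.15, 12 and 11.67 in SE (3.53 ± 0.66, adjusted p = 0.0095). Replicate 3 of LR+SE 7 days was the highest array in each of the 3, and no LR+SE 7 days array fell within the SE range. Marco and Cd300e were lost without that array or without replicate 1 of SE (highest adjusted p 0.0688 and 0.0772), and Saa3 also without replicate 3 of SE (highest 0.132). With the exon over intron covariate none of the 3 passed, at 3.80 ± 1.80 for Saa3 (adjusted p = 0.604), 3.59 ± 1.22 for Marco (0.379) and 2.18 ± 0.92 for Cd300e (0.53).

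Cfb, complement factor B, which builds the alternative pathway convertase, read 10.62, 9.67 and 11.80 in LR+SE 7 days, against 7.55, 6.04 and 7.35 in SE (3.72 ± 0.58, adjusted p = 0.00215). Ifitm2, an interferon-induced membrane protein that blocks viral entry, read 18.66, 18.67 and 18.80 in LR+SE 7 days, against 14.93, 16.20 and 16.37 in SE (2.88 ± 0.44, adjusted p = 0.00215). Both held without any single array, with highest adjusted p of 0.0197 and 0.0206, and their differences were 3.11 ± 0.86 and 2.29 ± 0.65 with the exon over intron covariate, where neither passed. Cfb was the sole call among 18 complement genes (5.56%), whose median was 0.50. Serpina3f, a serine protease inhibitor, read 11.34, 11.27 and 10.28 in LR+SE 7 days, against 9.61, 8.29 and 9.29 in SE (1.90 ± 0.41, adjusted p = 0.021), the sole call of 19 protease inhibitors (5.26%), and was lost in 4 of 6 exclusions (highest 0.0956). Clec4a1, a myeloid lectin, read 14.08, 13.46 and 15.10 in LR+SE 7 days, against 11.99, 12.16 and 12.57 in SE (1.97 ± 0.42, adjusted p = 0.02), lost without replicate 3 of LR+SE 7 days or replicate 1 of SE (highest 0.133). Mest, an imprinted gene of growing tissue, read 8.97, 11.78 and 10.40 in LR+SE 7 days, against 6.58, 6.58 and 6.75 in SE (3.74 ± 0.74, adjusted p = 0.0134), and Cnmd, a cartilage matrix protein, read 6.37, 5.28 and 8.56 in LR+SE 7 days, against 3.27, 3.81 and 3.08 in SE (3.35 ± 0.57, adjusted p = 0.00543). Cnmd held in every exclusion and Mest in 2 of 6 (highest 0.0766). With the covariate Mest differed by 2.18 ± 1.02, Cnmd by 2.21 ± 0.80 and Clec4a1 by 1.23 ± 0.59, and none passed (adjusted p 0.592, 0.412 and 0.617).

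**Figure D3:**
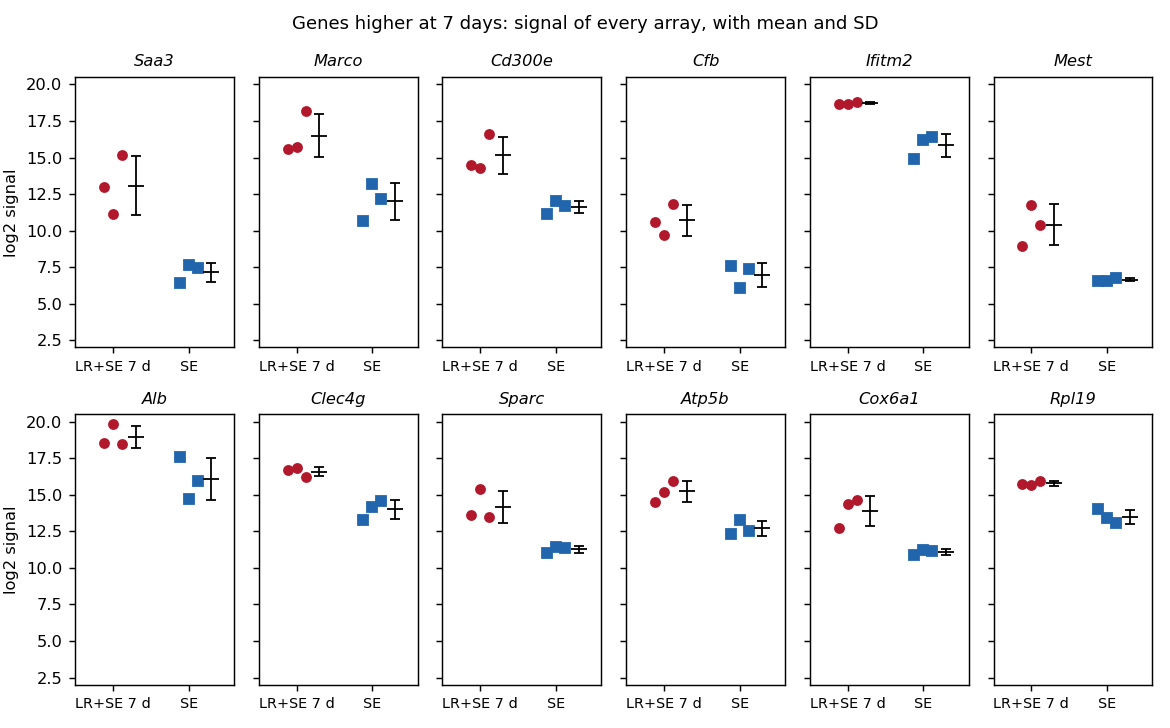
Log2 signal of every array for 12 called genes that were higher, LR+SE 7 days (red circles, left) and SE (blue squares, right), with the mean and SD of 3 arrays beside the points. The groups do not overlap in any panel, which holds for 335 of the 337 calls and for 18.3% of all clusters. Replicate 3 of LR+SE 7 days is the highest array for Saa3, Marco, Cd300e and Cfb.

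Of the marker lists of other liver cells, those of endothelial cells, stellate cells and hepatocytes held called members, 2 of 19, 2 of 14 and 1 of 25. In bulk RNA of a bead-sorted preparation, more cells of a type and more RNA per cell cannot be told apart. All 19 measured markers of sinusoidal endothelial cells had a positive difference, with a median of 1.21. Of these 2 were called (10.5%, against 1.52% of all clusters). Their mean level was 12.65, 13 and 11.98 in LR+SE 7 days, against 11.55, 11 and 11.29 in SE, without overlap, and no marker lay below background. Clec4g, the endothelial lectin LSECtin, read 16.73, 16.84 and 16.22 in LR+SE 7 days, against 13.30, 14.15 and 14.59 in SE (2.58 ± 0.47, adjusted p = 0.00809), lost without replicate 1 of SE (0.052). Fcgr2b, the inhibitory Fc receptor that these cells also carry, read 17.85, 18.60 and 17.14 in LR+SE 7 days, against 15.25, 16.31 and 16.56 in SE (1.83 ± 0.45, adjusted p = 0.0425), and passed in none of the 6 exclusions (highest 0.201). The scavenger receptor gene Stab2 did not pass (1.59 ± 0.50, adjusted p = 0.12), nor did Lyve1, a hyaluronan receptor (2.35 ± 0.76, adjusted p = 0.127). The endothelial list median was 2.04 with the exon over intron covariate, with 0 calls.

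Stellate cell and fibroblast genes had 2 of 14 members higher (14.3%), Dcn and Rgs5, with a median of 0.20. Dcn, the matrix proteoglycan decorin, read 10.37, 10.76 and 9.73 in LR+SE 7 days, against 6.76, 7.35 and 8.33 in SE (2.80 ± 0.67, adjusted p = 0.0355), but passed in no exclusion (highest 0.157). Rgs5, a pericyte regulator of G protein signalling, read 8.15, 7.74 and 9.25 in LR+SE 7 days, against 6.06, 6.01 and 6.11 in SE (2.32 ± 0.45, adjusted p = 0.0117, lost without replicate 3 of LR+SE 7 days at 0.095). The list's mean level was 4.61, 4.62 and 4.53 in LR+SE 7 days, against 4.14, 4.15 and 3.98 in SE, with 8 of 14 members above background. Collagen Col1a1 was near background, at 3.90 ± 0.20 in LR+SE 7 days and 4.19 ± 0.56 in SE. Sparc, a matrix protein of endothelial and stellate cells, read 13.59, 15.40 and 13.49 in LR+SE 7 days, against 11.02, 11.42 and 11.36 in SE (2.89 ± 0.56, adjusted p = 0.0117, lost without replicate 2 of LR+SE 7 days or replicate 1 of SE at up to 0.0652).

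Hepatocyte transcripts did not all run in the same direction. Albumin, Alb, read 18.57, 19.83 and 18.50 in LR+SE 7 days, against 17.62, 14.74 and 15.94 in SE (2.86 ± 0.52, adjusted p = 0.00785), and held without any single array. With the exon over intron covariate Alb did not pass (2.99 ± 0.79, adjusted p = 0.218). It was the sole call among 25 hepatocyte and acute phase genes (4%), of which 22 had a positive difference, with a median of 1.09. The list's mean level was 9.26, 10.69 and 10.17 in LR+SE 7 days, against 9.01, 8.55 and 9.02 in SE. The major urinary proteins, pheromone carriers that hepatocytes secrete, ran the other way, as seen after their values were known. Mup9 read 7.51, 16.08 and 11 in LR+SE 7 days and 18.79, 14.65 and 17.69 in SE, overlapping groups, and did not pass (-5.51 ± 2.21, adjusted p = 0.24). All 9 Mup clusters with a symbol were lower and 0 were called, and as near-identical copies they are not independent measurements. All 9 uncalled clusters with a difference below -5 were of this family by symbol (4) or had no symbol (5). How far cells other than macrophages carry the calls was not tested.

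Genes of the respiratory chain were higher in number. These proteins form the complexes of the inner mitochondrial membrane that pass electrons to oxygen and make ATP. Of 84 respiratory chain and ATP synthase genes, counted by symbol prefix after the values had been seen, 21 were higher (25%), none was lower and 79 differences were positive, with a median of 1.20. The list chosen earlier had 5 of 27 higher (18.5%, against 0.77% of all clusters) and a median of 1.21. Atp5b, the catalytic beta subunit of ATP synthase, read 14.51, 15.21 and 15.98 in LR+SE 7 days, against 12.32, 13.31 and 12.51 in SE (2.52 ± 0.47, adjusted p = 0.0089). Cox6a1, a subunit of cytochrome oxidase, read 12.75, 14.34 and 14.68 in LR+SE 7 days, against 10.85, 11.25 and 11.17 in SE (2.83 ± 0.61, adjusted p = 0.0218), and Ndufb9 of complex I read 11.01, 12.39 and 12.57 in LR+SE 7 days, against 8.51, 9.87 and 8.92 in SE (2.89 ± 0.67, adjusted p = 0.0299). Replicate 1 of LR+SE 7 days was the lowest of its group for each of the 3, and the groups did not overlap. Uqcrc1 of complex III read 7.70, 7.79 and 8.31 in LR+SE 7 days, against 7.16, 6.27 and 6.09 in SE (1.43 ± 0.31, adjusted p = 0.0217). The largest difference of the family was that of Atp5o, the stalk subunit, which read 10.25, 11.08 and 12.26 in LR+SE 7 days, against 7.00, 8.60 and 8.25 in SE (3.25 ± 0.64, adjusted p = 0.0126). Cycs, cytochrome c, which carries electrons between complexes III and IV, differed by 1.76 ± 0.40 (adjusted p = 0.0294, called in 2 of 6 exclusions).

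The respiratory calls rested on few arrays. Their number was 0 without replicate 3 of LR+SE 7 days, 4 without its replicate 2, 2 without replicate 1 of SE and 3 without replicate 3 of SE, while the median stayed between 1.07 and 1.35 in all 6 exclusions. With the exon over intron area as a covariate 0 of 84 passed and the median was 0.29, with 0.72 ± 0.45 for Atp5b, 0.65 ± 0.65 for Cox6a1, 0.27 ± 0.61 for Ndufb9, 0.78 ± 0.43 for Uqcrc1, 0.70 ± 0.57 for Atp5o and 0.72 ± 0.53 for Cycs. Of 23 cytoplasmic ribosomal protein genes 4 were higher (17.4%), all 23 differences were positive and the median was 1.73, or 0.97 with the covariate and 0 calls. Rpl19 read 15.71, 15.69 and 15.95 in LR+SE 7 days, against 14.03, 13.41 and 13.04 in SE (2.29 ± 0.43, adjusted p = 0.0089), lost without replicate 3 of either group (highest 0.0556). The ribosomal count was 0 without replicate 3 of LR+SE 7 days or of SE, 1 without replicate 2 of LR+SE 7 days and 2 without replicate 1 of SE. By prefix 4 of 73 cytoplasmic (5.48%) and 2 of 76 mitochondrial ribosomal protein genes (2.63%) were higher, with medians of 1.46 and 0.66. The proteasome list had 1 of 23 higher, the catalytic subunit Psmb1 (1.48 ± 0.31, adjusted p = 0.02, called in 2 of 6 exclusions), with a median of 0.96. With the covariate the median was 0.08 and Psmb1 differed by 0.84 ± 0.44. Gapdh, a glycolytic enzyme often used for scaling, read 17.89, 19.43 and 19.28 in LR+SE 7 days, against 16.15, 16.67 and 15.54 in SE (2.75 ± 0.56, adjusted p = 0.0159), called in 2 of 6 exclusions and at 0.68 ± 0.57 with the covariate. The genomic span of the called genes also differed between directions, with a median of 10.6 kb for the 148 higher, 20.8 kb for the 151 lower and 17.8 kb for all 19505 named genes. The part of RNA quality in these rises was not tested beyond the covariate.

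**Figure D4:**
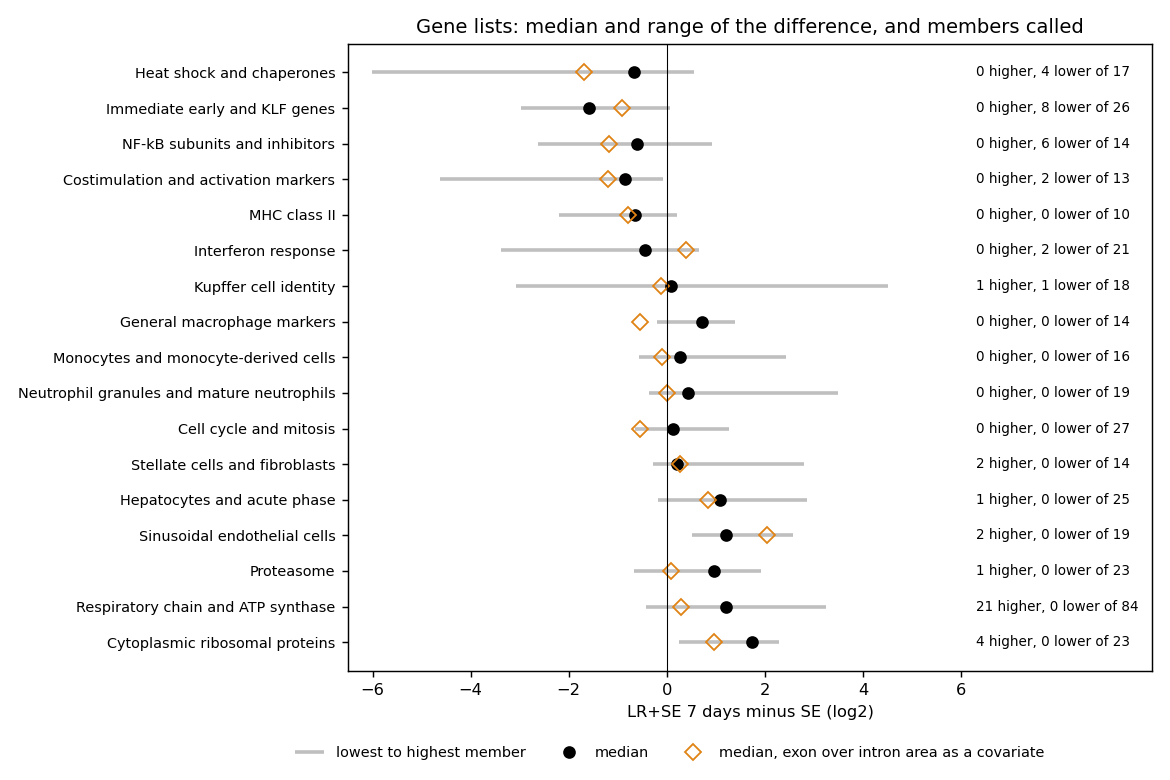
Difference LR+SE 7 days minus SE (log2) for 17 gene lists: the grey line runs between the lowest and the highest member, the black point is the median, the open diamond is the median with the exon over intron area as a covariate, and the text gives members called. The respiratory chain median lies at 1.20 without the covariate and 0.29 with it, and that of the heat shock list at -0.68 and -1.69.

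Macrophage identity genes held 2 calls, 1 in each direction. In the Kupffer cell list Marco was higher and Vcam1 lower, 2 of 18 (11.1%, against 1.52% of all clusters), with a median of 0.08. The list's mean levels were 16.01, 16.40 and 16.46 in LR+SE 7 days and 15.70, 16.29 and 15.97 in SE. Ccl24, an eosinophil attractant of Kupffer cells, read 13.20, 15.17 and 12.07 in LR+SE 7 days and 16.29, 16.74 and 16.63 in SE, without overlap, but did not pass (-3.07 ± 0.85, adjusted p = 0.0716). Timd4, the receptor for dying cells that marks long-lived Kupffer cells, read 13.43, 13.81 and 14.03 in LR+SE 7 days and 12.99, 13.76 and 13.42 in SE (0.37 ± 0.68, adjusted p = 0.865). Vsig4, the complement receptor, read 19.77, 19.83 and 19.73 in LR+SE 7 days and 18.77, 19.77 and 19.65 in SE, close to the top of the scale (0.38 ± 0.45, adjusted p = 0.787). Csf1r, the receptor that keeps macrophages alive, read 19.68, 19.49 and 19.66 in LR+SE 7 days and 19.49, 19.70 and 19.67 in SE, also near the top. Clec4f and Adgre1 overlapped too (-0.35 ± 0.72 and 0.72 ± 0.59, adjusted p = 0.88 and 0.65). The general macrophage list had 0 of 14 called and a median of 0.72, or -0.55 with the covariate.

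The lists of recruited and dividing cells held no calls in limma. With 1.52% of all clusters called, lists this short can lack calls without being unchanged. The monocyte list had 0 of 16 called, 14 positive differences and a median of 0.27. Its mean level was 7.67, 7.93 and 7.66 in LR+SE 7 days, against 6.93, 7.12 and 7.09 in SE, without overlap. Ccr2, the receptor by which monocytes leave the marrow, read 8.05, 9.56 and 8.12 in LR+SE 7 days and 8.02, 8.43 and 7.94 in SE (0.45 ± 0.55, adjusted p = 0.792). Ly6c2, a marker of inflammatory monocytes, read 6.60, 5.98 and 6.66 in LR+SE 7 days and 5.81, 6.51 and 5.19 in SE (0.57 ± 1.03, adjusted p = 0.86). Itgam, the CD11b integrin, read 11.59, 11 and 13.74 in LR+SE 7 days and 8.03, 11.54 and 9.74 in SE, with overlap (2.34 ± 1.15, adjusted p = 0.362). The standard errors of Ly6c2 and Itgam exceeded 1 log2 unit, so differences of that size were not detectable in these genes. Neutrophil genes had 0 of 19 called (median 0.44), lipid-associated macrophage genes 0 of 15 (0.28), MHC class II genes 0 of 10 (-0.65) and integrin and focal adhesion genes 0 of 34 (0.33). H2-Ab1, an MHC class II chain, spread widely, at 10.12, 14.49 and 11.41 in LR+SE 7 days and 14.40, 11.81 and 11.50 in SE. The cell cycle list had 0 of 27 called and a median of 0.12. Mki67, the proliferation marker, read 11.11, 11.08 and 11.17 in LR+SE 7 days and 9.63, 12.03 and 11.74 in SE, with replicate 1 of SE below the rest (-0.01 ± 0.69, adjusted p = 0.996). Top2a, a mitotic topoisomerase, differed by 0.04 ± 0.44 (adjusted p = 0.985). Over all clusters 3169 had an unadjusted p under 0.05.

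Against 3 days after resection, LR+SE 7 days had 303 clusters called (1.36%), 30 higher (0.135%) and 273 lower (1.23%), so most calls between these times were falls. Of the 25 hepatocyte genes 18 were lower at 7 days than at 3 days, with a median of -4.25 against LR+SE 3 days. That count was 6 without replicate 1 of LR+SE 7 days and 7 without replicate 2 of LR+SE 3 days. Acaa2, a mitochondrial thiolase of fatty acid oxidation, fell by 1.84 at 7 days against 3 days (adjusted p = 0.00122), and Serpina3f was higher at 7 days than at 3 days by 2.65 (adjusted p = 0.00153), both in all 6 single-array exclusions. Arg1, the arginine-degrading enzyme of repair macrophages, differed by -6.48 (adjusted p = 0.01) and Gpnmb, a glycoprotein of lipid-laden macrophages, by -5.61 (adjusted p = 0.0107) at 7 days against 3 days. Both were lost without replicate 1 or 3 of LR+SE 7 days, and Gpnmb also without replicate 2 of LR+SE 3 days (highest adjusted p 0.0656 for Arg1 and 0.103 for Gpnmb). Lipid-associated macrophage genes had 3 of 15 lower and monocyte genes 2 of 16. The monocyte count was 9 without replicate 3 of LR+SE 3 days, 4 without replicate 2 of LR+SE 7 days and 1 without its replicate 1 or 3. The lipid-associated count was 0 without replicate 1 or 3 of LR+SE 7 days or replicate 2 of LR+SE 3 days. Heat shock, NF-kB, immediate early and respiratory chain genes had 0 calls between 7 and 3 days. The count over all clusters was 122 and 150 without replicates 1 and 3 of LR+SE 7 days, and 129 and 473 without replicates 2 and 3 of LR+SE 3 days.

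The 24 h, 3 days and 7 days comparisons with SE use the same 3 SE arrays, so their values are given side by side only. Hspa1a differed from SE by -3.63 at 24 h, -5.60 at 3 days and -5.61 at 7 days, and Cd83 by -1.72, -4.58 and -4.62. Slc15a2 differed by 0.44, -2.91 and -4.64, and Cdkn1a by 0.37, -0.78 and -3.20. Marco stood 1.91, 1.74 and 4.50 above SE, Clec4g 0.13, 1.44 and 2.58, and Saa3 6.67, 9.0 and 5.94. Ly6c2 stood 4.73 above SE at 24 h, 3.59 at 3 days and 0.57 at 7 days, and Trem2, a lipid receptor of macrophages, 3.56, 3.18 and 0.06. The respiratory chain median by prefix was 0.59, 1.54 and 1.20, and the hepatocyte median 2.91, 5.15 and 1.09.

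**Figure D5:**
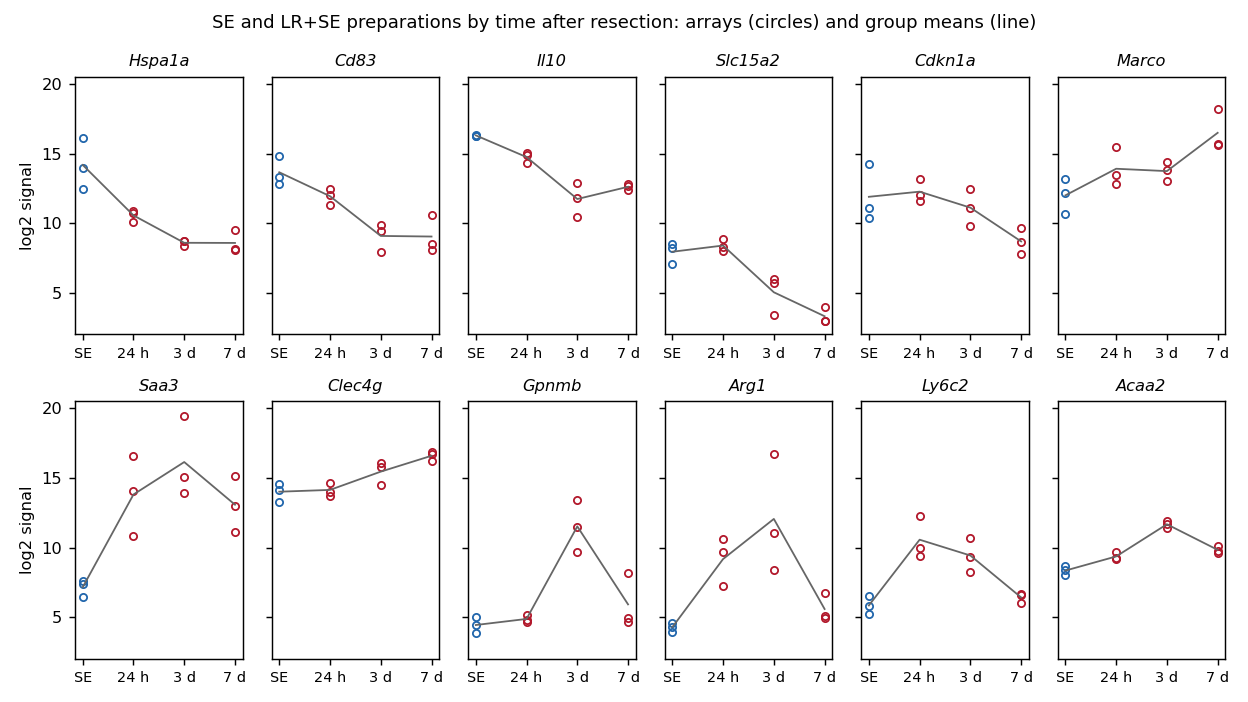
Log2 signal of 12 genes on every array of SE (blue) and of LR+SE 24 h, 3 days and 7 days (red), with lines through the group means. Hspa1a and Cd83 have nearly the same mean at 7 days as at 3 days, and Il10 lies at 11.74 at 3 days and 12.61 at 7 days. Slc15a2 and Cdkn1a reach their lowest mean at 7 days. Gpnmb, Arg1 and Ly6c2 at 7 days stand 1.49 ± 1.13, 1.31 ± 1.29 and 0.57 ± 1.03 above SE, none of them called. The Arg1 arrays of SE and 7 days do not overlap.

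Whether the response at 7 days differed without the spleen was tested as an interaction. This was the difference LR+SE 7 days minus SE less the difference LR 7 days minus intact. LR+SE 7 days was sampled 14 days after splenectomy and SE 7 days after it. The groups with a spleen have no such step, so spleen status and that time cannot be told apart. The interaction passed in 27 clusters (0.122%), 20 higher (0.0901%) and 7 lower (0.0315%), with 2462 at an unadjusted p under 0.05. Of the 10 named genes that also passed in the main comparison, Clec4g had 16.60 ± 0.34 in LR+SE 7 days and 14.01 ± 0.66 in SE, and 12.40 ± 0.29 in LR 7 days and 14.69 ± 1.02 in intact (SD, n = 3 each), an interaction of 4.87 ± 0.67 (adjusted p = 0.00677). Fcgr2b (3.97 ± 0.64, adjusted p = 0.0127) and Fmo1, a flavin monooxygenase (3.91 ± 0.57, adjusted p = 0.00677), also had higher values in LR+SE 7 days than in SE and lower ones in LR 7 days than in intact, and these 3 genes passed in all 12 single-array exclusions. Of 19 endothelial markers 4 passed the interaction, Clec4g, Fcgr2b, Oit3 and Plpp3, against 0.122% of all clusters. The count was 2 to 11 in the single-array exclusions. For heat shock genes the interaction did not pass: Hspa1a differed by -5.61 from SE and by -5.0 between LR 7 days and intact (interaction -0.61 ± 0.92, adjusted p = 0.863), and Cd83 by -4.62 from SE and by -5.20 between LR 7 days and intact (0.58 ± 0.85, adjusted p = 0.857). The interaction of Il10 was -3.54 ± 0.82 (adjusted p = 0.0715) and that of Tnf -4.74 ± 1.03 (adjusted p = 0.0605). The intact arrays and replicate 2 of LR 7 days lacked Y-linked signal. With that signal as a block 8 clusters passed, 7 of them among the 27. Clec4g then had 4.70 (adjusted p = 0.0232), Fmo1 3.41 (0.05) and Fcgr2b 3.47 (0.114). Oit3 had 4.27 (0.156) and Plpp3 2.63 (0.198) with the block, so of the 4 endothelial calls Clec4g alone passed. Jchain had the largest interaction among clusters with a symbol, 6.31 ± 0.91 (adjusted p = 0.00677), and 5.88 with the block (0.0458). It was not called between LR+SE 7 days and SE (2.54, adjusted p = 0.0509). The count of interaction calls was 482 without replicate 2 of LR 7 days and 104 without replicate 2 of intact. It was 13 and 15 without replicates 1 and 3 of intact. It was 57 and 17 without replicates 1 and 2 of LR+SE 7 days, and 16 and 7 without replicates 2 and 3 of SE.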

How the data were processed

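RNA of F4/80+ liver macrophages was hybridised to 24 one-colour mouse Clariom S arrays, 3 in each of 8 groups. The authors deposited log2 signals per transcript cluster, summarised by robust multi-array averaging in Transcriptome Analysis Console per the labels. The versions of these steps are not given in the sources used here. Averaging and compression near the top of the scale can understate changes of strong signals. Values were used as deposited. The 6640 control entries of 28846 were left out and 22206 clusters were tested, 19572 with exactly 1 symbol and 2634 without a symbol in the platform annotation. All columns were mapped by sample. A series of arrays has no read depth, so the number of arrays limits the precision.

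Group means over all 24 arrays were fitted with lmFit and eBayes in limma 3.58.1 (R 4.3.3), with 16 residual and 4.23 prior degrees of freedom, and p-values were adjusted over all clusters by Benjamini-Hochberg with a threshold of 0.05. Errors of differences are standard errors of that fit. An exact permutation test of 3 against 3 arrays cannot go below 0.1. The script was tested on simulated data. Where clusters shared a symbol, the one with the highest mean was named. Named genes were the 15 largest rises and 15 largest falls without overlap, up to 4 called members per list, and 26 set genes. Fos, Jun, Stab2, Lyve1, Col1a1, Ccl24, Cd3e, Cd79a and Krt19 were named beside these after their values were seen. So were the Mup and Amy2a families, Ctrb1, Cela1, Prss1 and the interaction genes. The members and the 49 lists were chosen with earlier results of these data known. Alternatives were other normalizations, filters, variance models, blocks, a t-test and the omission of each array. Families by symbol prefix and the exon over intron covariate were added after seeing the data. Promoters came from RefSeq GRCm38.p6, taking the first listed promoter of each gene. Plots were made in Python 3.11.15 (matplotlib 3.10.9).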

Additional observations from a re-analysis of the deposited data

Results flagged for a closer look

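The difference LR+SE 7 days minus SE departed from LR 7 days minus intact in 27 clusters, by limma's interaction term. Time since splenectomy also differed between LR+SE 7 days and SE, so it cannot be told apart from spleen status. Of the named genes among these clusters 10 also passed between LR+SE 7 days and SE. The interaction was 4.87 for Clec4g, 4.41 for Gapdh, 3.97 for Fcgr2b, 3.91 for Fmo1, 3.77 for Alb and 2.86 for the matrix proteoglycan Bgn. It was -1.87 for the ubiquitin ligase Arih1, -1.94 for the co-repressor Irf2bp2, -2.32 for the cyclin gene Ccng2 and -2.77 for Eid3. Clec4g, Fcgr2b and Fmo1 passed in all 12 single-array exclusions and Irf2bp2 in 10 of them. Gapdh and Alb passed in 6 of 12, Arih1 and Ccng2 in 5, Eid3 in 4 and Bgn in 3.

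The 3 intact arrays and replicate 2 of LR 7 days had no Y-linked signal, while the LR+SE 7 days and SE arrays did. With Y-linked signal as a block the interaction was 4.70 for Clec4g (adjusted p = 0.0232), 3.47 for Fcgr2b (0.114), -1.89 for Irf2bp2 (0.114), 3.45 for Gapdh (0.156) and 3.63 for Alb (0.16). It was 3.41 for Fmo1 (0.05), 2.53 for Bgn (0.201), -1.57 for Arih1 (0.178), -2.10 for Ccng2 (0.156) and -2.40 for Eid3 (0.201), so each of the 10 kept its direction, Fmo1 lay at the threshold and 8 lay above it. With 3 arrays a group, no array was tested for standing apart from its own group.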

How the results depend on the processing

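Of the alternatives for the 337 calls between LR+SE 7 days and SE, the counts were 310 with the 6 arrays alone (182 of the calls kept), 485 with clusters above background, 337 with equal array medians, 398 after quantile normalization, 306 with an intensity trend, 488 with array weights, 331 without signals above 19 and 412 with a Y-linked block. They were 24 with the exon over intron covariate and 87 to 437 in the single-array exclusions. The study's methods name no test for the arrays. A t-test on the 6 arrays, named there for pairwise comparisons in general, gave 2404 at an unadjusted p under 0.05 and 0 after Benjamini-Hochberg. By limma 3169 had an unadjusted p under 0.05. The cause of these differences was not tested. Same-numbered arrays deviated from their group means with correlations of 0.0764, -0.127 and 0.0291, so the numbers do not pair the preparations, and the replicate block gave 327 calls. Against LR+SE 3 days the 303 calls were 257 to 396 under the other settings (271 with the replicate block) and 122 to 473 in single-array exclusions. The 27 interaction calls were 90 with clusters above background, 45 with an intensity trend, 179 with array weights, 8 with the Y-linked block, 12 with the covariate, 21 with the replicate block and 7 to 482 in single-array exclusions.

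Over the genes named, 1346 alternative values kept direction and side of the threshold, 391 fell short of it, 1 newly passed and 31 turned sign. Those that turned were uncalled genes, with the exception of Atp5d (-0.11 with the covariate). With the covariate they were Gpnmb (-0.64), Clec4f (0.32), Ccr2 (-0.39), Vsig4 (-0.05), Timd4 (-0.67), Top2a (-0.46), Trem2 (-1.55), Adgre1 (-0.01) and Csf1r (0.17). With equal array medians they were Mki67 (0.01) and Csf1r (0.02), after quantile normalization Top2a (-0.18) and Trem2 (-0.10), and with array weights Top2a (-0.02) and H2-Ab1 (0.18). Single-array exclusions ranged over -0.02 to 0.51 for Hgf, -0.76 to 0.44 for Mki67, -0.04 to 0.71 for Ccr2, -1.86 to 0.32 for Cx3cr1, -0.17 to 0.25 for Top2a, -0.70 to 0.71 for Trem2, -1.80 to 0.38 for H2-Ab1 and -0.07 to 0.05 for Csf1r. On average over the arrays 9650 clusters (43.5%) lay below background, and 7 of the calls had both group means there.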

Other observations

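Transcripts of pancreatic amylase appeared on some arrays, as seen after the values were known. Amy2a2, a pancreatic amylase, read 3.82, 3.21 and 3.62 in LR+SE 7 days and 3.73, 9.85 and 9.39 in SE, so replicates 2 and 3 of SE stood apart from the others. The difference of -4.11 ± 1.40 did not pass (limma adjusted p = 0.153). Replicate 1 of LR+SE 3 days read 9.47, and replicates 1 and 2 of LR 24 h, from mice with a spleen, read 7.16 and 5.34. Other pancreatic genes did not all follow. In SE Ctrb1 read 2.72, 5.21 and 4.93, while Cela1 (3.15, 2.77 and 2.97) and Prss1 (2.84, 3.47 and 3.32) stayed below background.

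Among the calls without a gene symbol, TC0400004199.mm.2 (4.44, adjusted p = 0.000413) and TC1500001728.mm.2 (4.27, adjusted p = 0.00152) had the largest positive differences, and TC1700000655.mm.2 the largest negative one (-4.09, adjusted p = 0.00561). Lifr, a cytokine receptor subunit, was the sole higher call that also passed with the exon over intron covariate (1.81, and 2.84 ± 0.51 with it).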
